A study of Rattus norvegicus with 5 samples.

Results

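The miRNAs described here are 9 mature miRNAs of the imprinted Dlk1-Dio3 region of rat chromosome 6, measured in the heart after transverse aortic constriction (TAC), surgery in which a ligature round the aortic arch raises the pressure the left ventricle works against. They are rno-miR-665, rno-miR-127, rno-miR-136, rno-miR-299, rno-miR-323, rno-miR-1193-3p, rno-miR-667, rno-miR-300-3p and rno-miR-300-5p (rno for rat, left out below), 9 of the 678 rat miRNA probes on the array. They were selected on their background-subtracted signal in these data, which rose above a detection floor on 1 or more of the arrays, so that being detected is a description of them and not a finding. The data held 5 arrays of 1 colour (Hy3): 1 of sham-operated rats, labelled 5 days after surgery, and 4 of TAC rats at 5, 10, 15 and 20 days. All were male SD rats with no genetic change named in the labels, 6 to 8 weeks old when housed, and each array carried RNA from the hearts of 5 rats. Each group therefore had 1 array, with no replicate check and no test of any difference. Errors below are over the 4 spots of a probe on an array and cover technical spread alone. Every TAC array was set against the same sham array, so the comparisons share whatever was particular to it. In RNA of whole hearts, fewer cells of a type and less RNA per cell cannot be told apart.

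Imprinted genes are expressed from the chromosome of 1 parent. In mouse the Dlk1-Dio3 region gives the protein-coding genes Dlk1, Rtl1 and Dio3 from the paternal chromosome, and long non-coding RNAs and one of the largest known groups of miRNAs from the maternal chromosome. A first group of these miRNAs lies at Rtl1, where miR-127 and miR-136 are transcribed antisense to Rtl1 and are known in mouse to cut its mRNA. A second, longer cluster lies downstream and is best known from brain and embryonic tissue. In mouse the transcription factor MEF2 activates miRNAs of the region in neurons and in muscle, and their levels in heart are high before birth and low in the adult. A miRNA acts mainly through its seed, bases 2 to 8, which pairs with target mRNAs.

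Mature sequences are printed because none of the 8 members matched to RefSeq (GRCr8) shared a seed with another. Each reads 5′ to 3′, the seed is in capitals, and all lie on the + strand of GRCr8. The first 2 belong to the group at Rtl1 and the others to the downstream cluster, in the order of the chromosome. The array names miR-127, miR-299, miR-323 and miR-667 carry no arm. MiR-127, miR-323 and miR-667 were matched to the arm that the names have by convention. MiR-299 was matched to miR-299a-5p because the array names its opposite strand together with miR-3563-3p, which is contained in miR-299a-3p.
miR-665 (chr6:134321733-134321754): aCCAGGAGgcugaggucccuua
miR-127-3p (chr6:134328510-134328531): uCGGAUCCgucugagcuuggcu
miR-299a-5p (chr6:134545075-134545096): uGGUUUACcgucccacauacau
miR-323-3p (chr6:134546994-134547014): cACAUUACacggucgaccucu
miR-1193-3p (chr6:134550509-134550530): uAGGUCACccguuuuacuaucc
miR-667-3p (chr6:134555392-134555413): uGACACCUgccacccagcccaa
miR-300-5p (chr6:134559923-134559944): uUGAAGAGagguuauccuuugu
miR-300-3p (chr6:134559968-134559989): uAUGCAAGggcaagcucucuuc

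Some sequences of the region could pair with the probe of a neighbour. The next lines show miR-300-3p and miR-381-3p, with the base that differs in capitals, G4A counted from the 5′ end of miR-300-3p over 18 compared bases. They also show miR-299a-5p with miR-299b-5p of the opposite strand, where capitals mark a shared run of 19 bases. The last line shows miR-370-5p, whose seed (capitals) is that of miR-1193-3p. It is shown for this seed of 7 bases, which pairs with target mRNAs, and not as a sequence near-identical to miR-1193-3p.
miR-300-3p: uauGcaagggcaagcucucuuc
miR-381-3p: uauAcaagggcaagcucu
miR-299a-5p: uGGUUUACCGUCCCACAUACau
miR-299b-5p: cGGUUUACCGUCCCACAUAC
miR-370-5p: cAGGUCACgucucugcaguuacac
The array's probes for miR-381 and for miR-3563-5p, which has the sequence of miR-299b-5p, stayed below the floor on every array. How far a probe also bound a near-identical miRNA was not tested.

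In RefSeq the 8 genes of these 9 miRNAs spread over 238 kb. Mir665, Mir127 and Mir136 lay within 9.74 kb, with Mir127 and Mir136 inside the span of Rtl1. Mir665 lay outside that span, 6.68 kb before Mir127, and is counted with the group at Rtl1 only by its nearness. A gap of 214 kb followed, and Mir299, Mir323, Mir1193, Mir667 and Mir300 lay within 14.9 kb. Between Dlk1 and Dio3 RefSeq listed 59 miRNA genes, so the 9 miRNAs came from a small share of them.

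The floor was the median plus 3 scaled median absolute deviations of 1136 empty and negative-control spots, and a probe counted as above it by its mean background-subtracted signal, given here in scanner units. It was 30.6 units for sham and, by day of TAC, 72.1 (5), 46.4 (10), 46.4 (15) and 28.1 units (20). Of the 9 miRNAs, 8 were above it on sham, then 5, 8, 5 and 9 on the TAC arrays in order of day. The 5 above it on all arrays (miR-299, miR-323, miR-1193-3p, miR-667 and miR-300-5p) all came from the downstream cluster. Of the 3 miRNAs at Rtl1, all were below it on days 5 and 15. Members just inside it were miR-127 and miR-665: miR-127 reached 54.5 units against a floor of 30.6 on sham, and miR-665 reached 46.5 against 28.1 on day 20. Just outside, miR-382 reached 24.75 against 28.1 on day 20 and miR-487b reached 44.25 against 72.1 on day 5.

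The 9 miRNAs are not all of the region. A list of region miRNAs by name matched 88 probes, of which 21 were above the floor on at least 1 array, the 9 and 12 more. Of these 12, 9 were starred (the strand named as minor): miR-134*, miR-329*, miR-377*, miR-433*, miR-485*, miR-487b*, miR-539*, miR-758* and miR-770*, and the others were miR-329, miR-434 and miR-668. For 8 of the 9 starred probes the unstarred partner was above the floor on no array, the exception being miR-329. The opposite strands of miR-127, miR-136, miR-299, miR-323, miR-667 and miR-1193-3p were also above it on none. Position in RefSeq added 11 probes, of which miR-1188-3p was above the floor. Of the 88 probes, 18.2% passed the floor in sham, and 14.8%, 18.2%, 14.8% and 23.9% did so on the TAC arrays in order of day, against 34.8%, 23.9%, 31.4%, 30.5% and 37.9% of all rat probes.

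**Figure D1:**
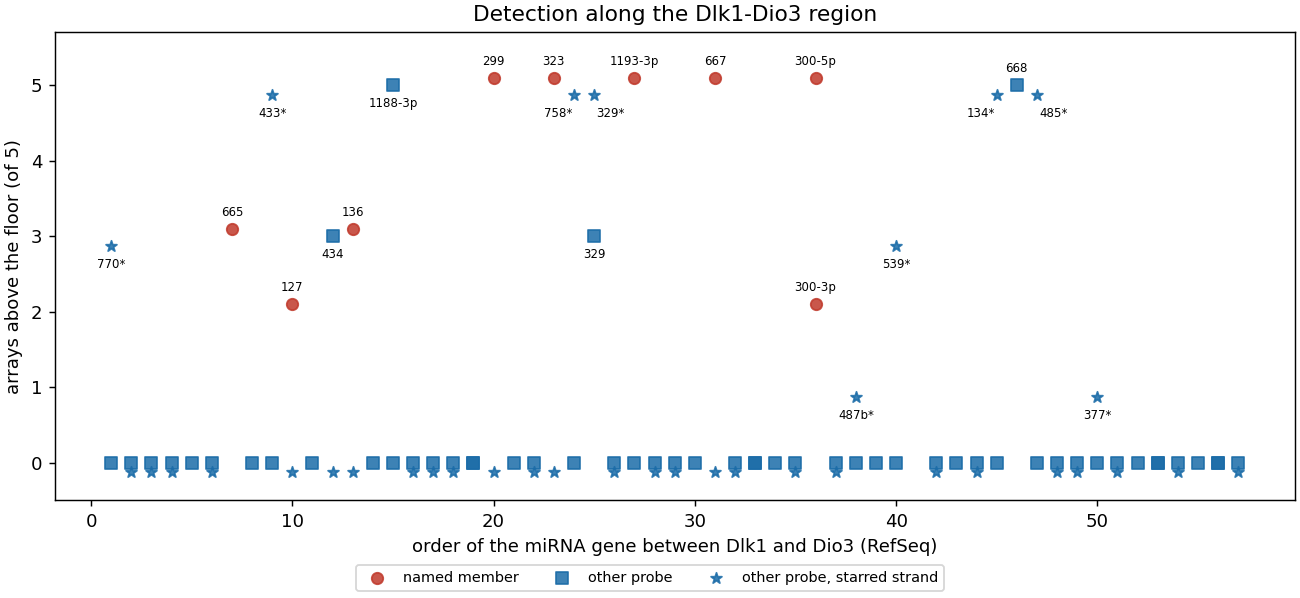
Number of arrays (of 5, y axis) on which each probe of the region was above the floor, by the order of its miRNA gene between Dlk1 and Dio3 (x axis, rank without unit), with symbols of 1 value set slightly apart. Circles are the 9 miRNAs, squares other probes and stars other starred probes. All 5 circles at the top lie in the downstream cluster, and 67 probes named for the region were never above the floor.

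MiR-300-5p was past 2-fold on day 5 under every setting tried. Its mean signal was 658 ± 123 units on sham (SD over 4 spots, as for all signals). The TAC arrays read 2063 ± 158, 1207 ± 105, 895.5 ± 42.7 and 1240.5 ± 11.2 units in order of day, which is the order of all values below. All 4 TAC arrays were thus above sham. After scaling, its log2 ratio to sham was 1.88 ± 0.13 (SE over spots, as for all ratios), then 0.77 ± 0.13, 0.48 ± 0.12 and 0.86 ± 0.11. Day 5 lay above day 20, the next in order, by 1.02, beyond the pooled spot SD of 0.15, while days 20 and 10 differed by less than theirs. On every TAC array all 4 of its spots lay above the 4 sham spots. The ratio depended on which side of the slide was read: blocks 1 to 18 gave 1.49, 1.08 and 1.25 on days 10, 15 and 20, and blocks 19 to 36 gave 0.16, -0.10 and 0.39.

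The other arm of the same hairpin, miR-300-3p, was near or below the floor. Its mean signal was -4.75 units on sham, then -21.75, 218.8 ± 288, 36.5 and 34.75, and only days 10 and 20 passed the floor. On day 10 it was at least 1.76-fold higher than sham by its mean, but its spots overlapped those of sham, and the signal came from 1 side of the slide, with means of -25.5 units in blocks 1 to 18 and 463 in blocks 19 to 36. With miR-300-3p below the floor on 3 of the 5 arrays, the profiles of the arms could not be compared.

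MiR-667 lay far above the floor on every array. Its signal was 947.5 ± 57.5 units on sham and 1696 ± 176, 1492 ± 214, 1263 ± 188 and 1059.5 ± 40.4 after TAC. Sham was lowest and day 5 highest, and the spots of days 5, 10 and 15 did not overlap those of sham after scaling, while those of day 20 did. The log2 ratios were 1.06 ± 0.08, 0.58 ± 0.13, 0.50 ± 0.11 and 0.15 ± 0.05. Days 10 and 15 did not differ beyond their spot spread, and day 20 gave 0.48 in blocks 1 to 18 but -0.08 in the others.

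MiR-299 lies at the upstream end of the second cluster. Its mean signal was 399.5 ± 115 units on sham, with spots of 425 to 523 units on day 5, and the means of the later arrays were 509, 663.5 and 689.2. Unscaled, the last 2 arrays were highest. After scaling day 5 was highest, with log2 ratios of 0.98 ± 0.15, 0.52 ± 0.17, 0.68 ± 0.16 and 0.50 ± 0.17, so the order of the TAC arrays depended on the scaling. Its scaled spots overlapped those of sham on day 20 and not on the earlier days. All 4 ratios stayed within 2-fold, the one on day 5 by a narrow margin.

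MiR-1193-3p passed 2-fold on day 5, the 1 array on which its scaled spots did not overlap those of sham. The signal was 562.5 ± 35.5 units on sham, followed by 761.5, 480.5 ± 245, 666 ± 321 and 811.5. The log2 ratio was 1.01 ± 0.05 on day 5, just past 2-fold, and 0.021 ± 0.24, 0.30 ± 0.26 and 0.37 ± 0.17 afterwards. This order depended on the scaling, since the unscaled signal was highest on day 20, and with quantiles over every probe but the controls the ratios of days 5 and 10 were 0.21 and -0.36. On day 15 its spots averaged 388.5 units in blocks 1 to 18 but 943.5 in blocks 19 to 36.

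MiR-323 was faint on sham and brighter on each TAC array. Its signal was 41 ± 35.5 units on sham against 196.8 ± 103, 459.5 ± 364, 245.2 ± 207 and 214 ± 22.2 after TAC. The log2 ratio was 1.38 ± 0.29, 1.55 ± 0.44, 0.93 ± 0.50 and 0.65 ± 0.14. These sizes depended on the background treatment: plain subtraction gave 2.42, 3.31, 2.63 and 2.32, and the authors' processed values gave 2.91, 3.61, 3.05 and 2.45, all past 2-fold. Sham was lowest, its scaled spots overlapped those of day 15 alone, and the order of the 4 TAC arrays was within their spot spread. On day 10 the signal was 144.5 units in blocks 1 to 18 but 774.5 in blocks 19 to 36, yet their ratios were 1.43 and 1.75, so both were past 2-fold. With the scaling used here miR-323 was also the one member past 2-fold on day 10, and its sham signal of 41 units stood little above the floor of 30.6.

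Of the 3 miRNAs at Rtl1, miR-127 and miR-665 stayed near the floor and miR-136 stood well above it on sham. None of the 3 had a ratio past 2-fold where it was measured on both arrays, except under spike-in scaling on day 10, which put all 7 measured members past 2-fold. MiR-136 read 174.2 ± 35 units on sham, then -55.75, 155.2 ± 148, -3.75 and 92.25. It was at least 1.05-fold lower than sham on day 5 and at least 1.47-fold lower on day 15, and its log2 ratio was -0.0077 ± 0.38 on day 10 and -0.64 ± 0.23 on day 20. The day 10 signal was 29 units in blocks 1 to 18 but 281.5 in the others. MiR-127, the antisense partner of Rtl1 that is best known in mouse placenta, read 54.5 units on sham, then 4.75, 34.5, -11.75 and 29. It passed the floor on sham and day 20, where the log2 ratio was -0.33 ± 0.10, and the sign turned to 0.07 under spike-in scaling. MiR-665 read 46.25, 15.25, 50.25, -5 and 46.5 units in the same order, with log2 ratios of 0.19 ± 0.19 on day 10 and -0.13 ± 0.09 on day 20. For miR-127 and miR-665 on days 5 and 15, sham stood so near the floor that no bound on the difference could be given.

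**Figure D2:**
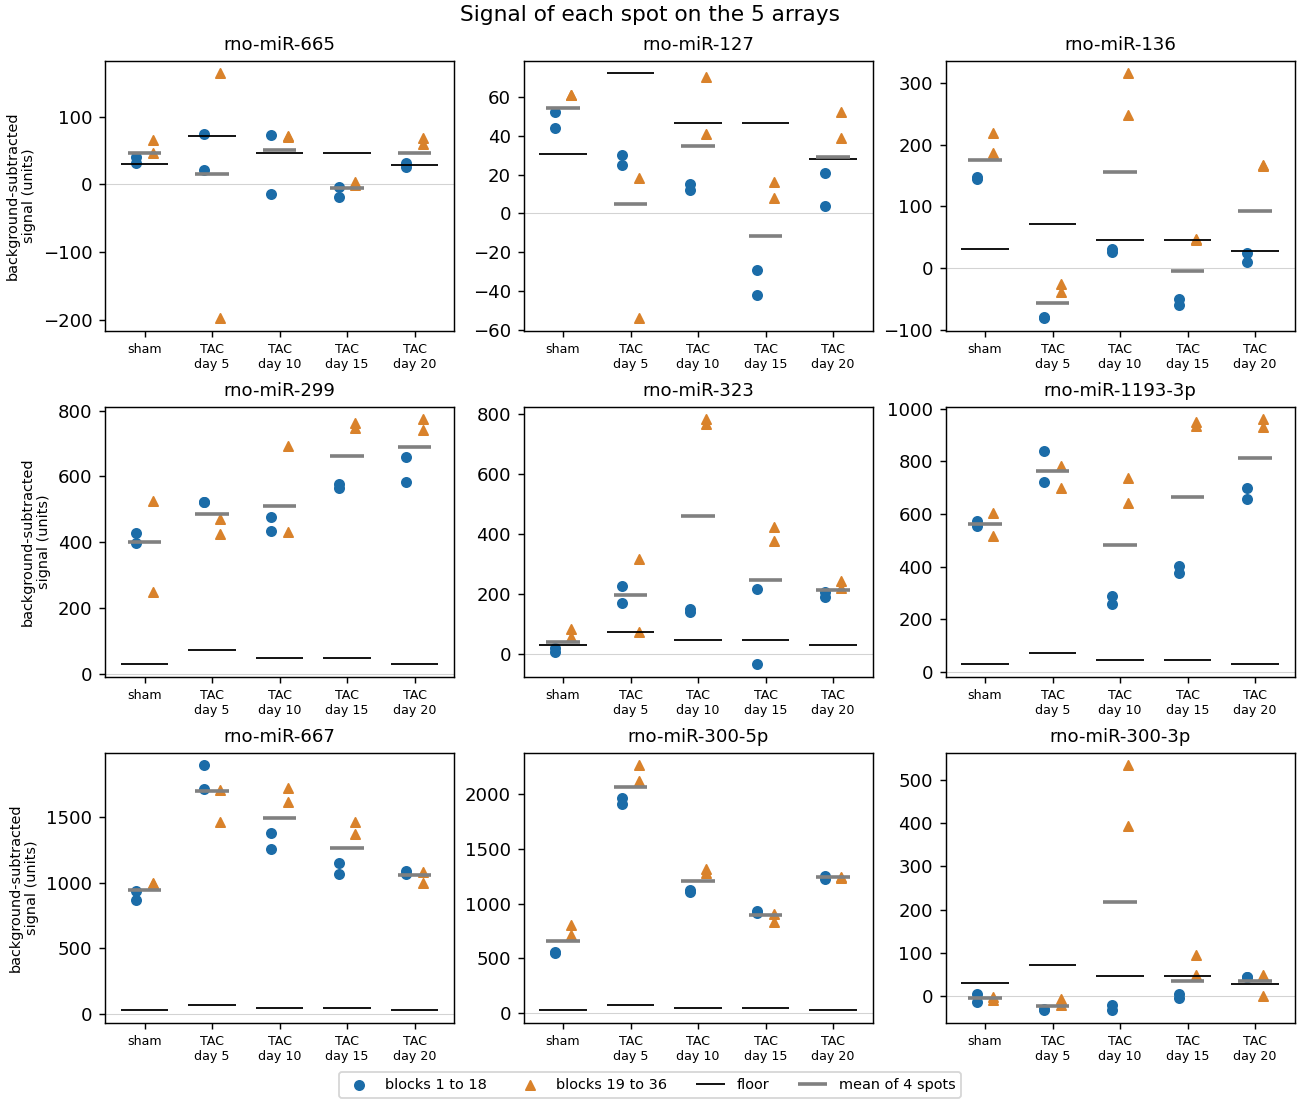
Background-subtracted signal (scanner units, y axis) of the 4 spots of each of the 9 miRNAs on the 5 arrays (x axis), with the mean and the floor of each array. MiR-300-5p and miR-667 lie far above the floor on all arrays, while the spots of miR-300-3p and miR-323 on day 10 fall into a low and a high pair.

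Counted together on day 5, 5 of the 9 miRNAs were above the floor on both arrays, and 4 of them (miR-323, miR-300-5p, miR-1193-3p and miR-667) were 2-fold or more above sham. Of the 152 rat miRNAs measured on both arrays, 41.4% were that much higher and 67.8% were 2-fold or more apart in either direction, so such a count rests on an array where many miRNAs differed. The share higher depended on scaling: 63 miRNAs were higher and 40 lower with the scaling used here, 24 and 47 when quantiles were taken over every probe but the controls, 117 and 7 with spike-in scaling, and 49 and 49 with plain background subtraction. After scaling, as in the spot counts of the later days, all 4 spots lay above all 4 sham spots for all 5 members. The share of the 152 was 51.3%. Unscaled, spots of miR-299 (425 to 523 units) overlapped sham spots that reached 525. The lowest miR-323 spot, at 72, was below a sham spot of 84. Their median log2 ratio was 1.06, against 0.56 for the 152. For the 3 members measured on sham alone there was no ratio, so the count and median leave out those that could have been lower. Without any floor the median of all 9 was 0.98, against 0.076 for the 678 probes. These sets are unlike, since the 9 were chosen for passing the floor and 432 of the 678 were below it on both arrays. The gap between these medians therefore says nothing on the members.

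On day 10, 1 of 7 measured members (miR-323) was 2-fold or more higher. The share of the 197 rat miRNAs measured was 13.7% higher and 29.4% in either direction, so the members' count was close to the background. All 4 spots lay above sham for 4 members, against 29.4% of the 197, and the members' median was 0.52 against -0.0058. This day rested on the side of the slide that was read: the members' median was 0.85 above that of all measured miRNAs in blocks 1 to 18, and the medians were equal in blocks 19 to 36.

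On day 15, 0 of 5 measured members were 2-fold or more apart, against 7.46% of 201 rat miRNAs in either direction and 4.98% higher. All 5 ratios were above sham, from 0.30 to 0.93, the median was 0.50 against -0.0075, and all 4 spots lay above sham for 3 members, against 21.9% of the 201. Of the 201, 99 were above sham. MiR-136, miR-127 and miR-665 were measured on sham alone, so the count and median leave them out. Their scaled spots on day 15 lay fully below those of sham, with mean signals below the floor. On day 20, 0 of 8 were 2-fold or more apart, against 1.73% of 231, and the median was 0.26 against -0.075. The scaled spots lay fully above sham for 2 members (miR-323 and miR-300-5p), against 19.5% of the 231. They lay fully below it for 2 (miR-136 and miR-127), against 14.7%. Unscaled, the spots of miR-136 reached 167 units against sham spots from 145, and those of miR-127 reached 52 against 44, so both overlapped sham. On day 20, all 5 measured members of the downstream cluster were above sham, with a median of 0.50, and all 3 at Rtl1 were below it, with a median of -0.33. With 1 array a group that split is a description, and of all 231 measured miRNAs 96 were above sham and 135 below it. It is a split of the members alone. MiR-433* and miR-434, whose genes lie between Mir665 and Mir136, were higher than sham on day 20. MiR-433* had a log2 ratio of 0.33, with its scaled spots fully above sham. MiR-434, below the floor on sham, was 1.12-fold higher, and its spots overlapped those of sham. The split did not hold in every setting: with spike-in scaling miR-665 (0.31) and miR-127 (0.07) were above sham, and in blocks 19 to 36 miR-667 (-0.08) was below it. On that array miR-127 and miR-665 stood near the floor of 28.1, at 29 and 46.5 units, and miR-136 read 92.25.

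**Figure D3:**
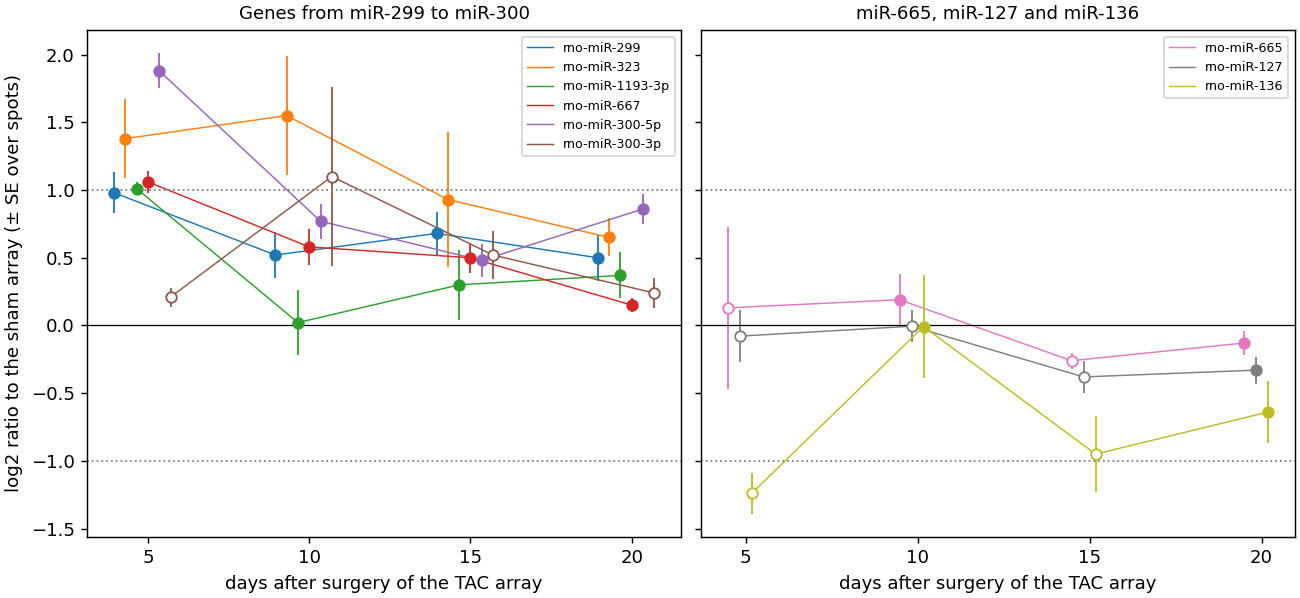
Log2 ratio to sham (y axis) of each of the 9 miRNAs on the 4 TAC arrays (x axis, days after surgery), with SE over 4 spots and dashed lines at 2-fold. MiR-300-5p, miR-667, miR-299 and miR-1193-3p are highest on day 5, and miR-323 stays above sham on all 4 arrays.

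**Figure D4:**
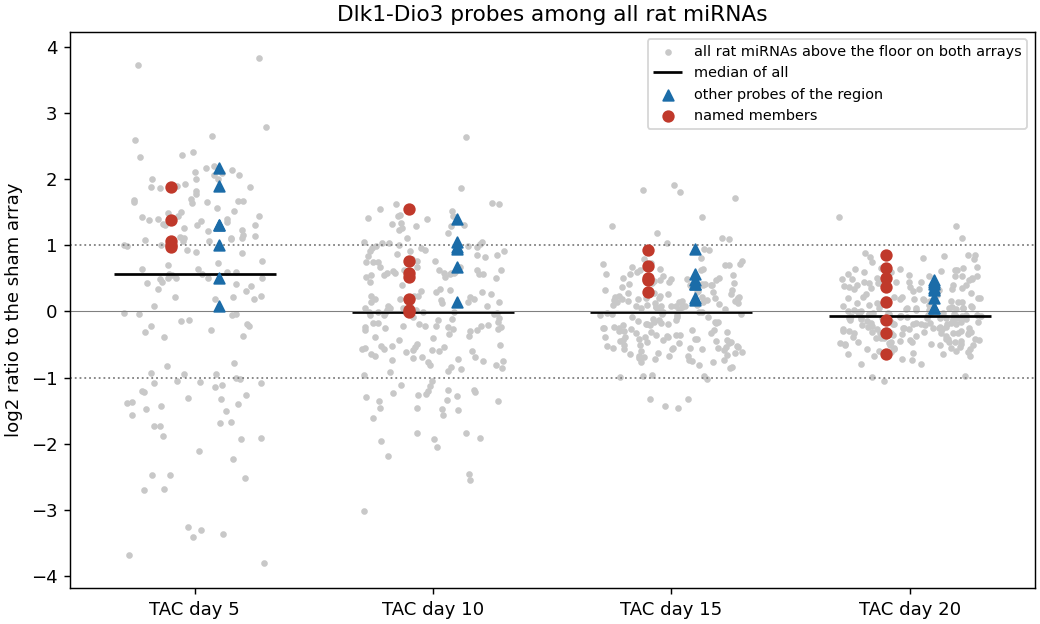
Log2 ratios to sham (y axis) of all rat miRNAs above the floor on both arrays and of the 9 miRNAs and 12 other region probes among them, for each TAC array (x axis). The spread of all miRNAs narrows from day 5 to day 20, and the 9 miRNAs sit inside it on each day.

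The 12 other region probes, found by the same floor, were compared as the group most like the 9. On day 5, 7 were measured on both arrays, 5 were 2-fold or more higher and the median log2 ratio was 1.30. On days 10, 15 and 20 the counts were 2 of 6, 0 of 7 and 0 of 8, and the medians were 0.97, 0.41 and 0.34. None that was measured on both arrays lay below sham on any day. Of all rat miRNAs so measured, 58 of 152, 100 of 197, 102 of 201 and 135 of 231 lay below sham by day. Probes measured on sham alone, 1, 2, 1 and 0 by day, are left out of this. Among them miR-329 on day 10 was at least 1.11-fold lower, with its scaled spots fully below sham. MiR-433* read 1055 ± 94 units on sham, then 3060 ± 346, 2896 ± 355, 1098.5 ± 93.9 and 1326 ± 111. Its log2 ratios were 1.90, 1.40, 0.17 and 0.33, so it stood apart from sham on the first 2 TAC arrays more than on the last 2. MiR-539* read 39.75 units on sham and 411.5 on day 5, a log2 ratio of 2.17 ± 0.16, and was below the floor on days 10 and 15. MiR-434 was below the floor on sham, though its scaled log2 level there (7.48) was above the lowest one detected (7.45). Against its own sham level it was 3.21-fold higher on day 5 and 1.84-fold higher on day 10. MiR-1188-3p, found by position, read 804.8, 2642, 2389, 930.2 and 746.2 units, with log2 ratios of 2.01, 1.44, 0.28 and -0.18.

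Other imprinted loci gave few measured miRNAs. MiR-675, which is cut from the imprinted non-coding RNA H19, had log2 ratios of 2.11 ± 0.07, 1.26 ± 0.09, 1.72 ± 0.10 and 0.57 ± 0.10 on days 5, 10, 15 and 20. MiR-335, from an intron of the imprinted gene Mest, was at least 1.06-fold lower on day 5 and had ratios of -0.17, -0.23 and -0.038 afterwards, each within its SE. MiR-483* was at least 2.51-fold higher on day 10, and miR-296, miR-298 and miR-483 were above the floor on no array.

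For each of the 5 members measured on all arrays, the 2 rat miRNAs with the smallest root mean square difference of log2 ratio over the 4 TAC arrays were taken from 142 candidates. MiR-300-5p was nearest to miR-204* (0.11) and miR-344b-2-3p (0.18), and miR-323 to miR-294 (0.23) and miR-340-5p (0.27). Let-7d* was nearest to both miR-299 (0.14) and miR-667 (0.15). The next for miR-299 was miR-667 itself (0.20), also of the downstream cluster, and for miR-667 it was miR-29b (0.17). MiR-1193-3p was nearest to miR-466b-2* (0.21) and miR-503 (0.23). These are descriptions of 4 ratios that share 1 sham array.

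The tissue label was checked by cardiac and striated muscle miRNAs, of which 9 of 12 probes were above the floor on every array, with a summed signal of 108900 to 161700 units. Because the downstream cluster is best known from brain, 12 neuronal probes were read beside it. On sham and TAC days 5 to 20, 5, 3, 3, 4 and 5 of them were above the floor, with summed signals of 950.8, 521.2, 1528, 513.2 and 737 units, and miR-124*, miR-128, miR-129, miR-137, miR-219-5p and miR-7b were above it on none. The 3 measured throughout were unlike each other: on days 5 and 10 the log2 ratios were 1.11 ± 0.53 and 1.29 ± 0.33 for miR-124, 0.64 ± 0.14 and 1.62 ± 0.77 for miR-9*, and 0.22 ± 0.11 and 0.056 ± 0.18 for miR-9. The day 5 spots of miR-124 overlapped those of sham, and miR-7a and miR-137* were above the floor on sham and below it on both days. The sham mean of miR-137* (373 ± 798 units) rested on 1 spot of 1570 units, and it was part of the summed sham signal. On day 5 the median log2 ratio was -2.44 for endothelial, -2.68 for erythroid, -1.91 for smooth muscle and -1.02 for fibroblast markers. It was -0.28 for leukocyte and -0.21 for cardiac and striated muscle markers, the latter running from -2.48 (miR-499) to 1.32 (miR-133a). The smooth muscle median joined miR-143 (-3.69) with miR-145 (-0.13), and the endothelial median joined miR-126 (-3.80) with miR-126* (-1.08). Among the fibroblast markers miR-214 was at -0.025. On day 10 the median was -2.19 for erythroid, -0.65 for endothelial, -0.23 for smooth muscle and -0.57 for fibroblast markers. It was -0.20 for leukocyte and -0.52 for cardiac and striated muscle markers. The part of these cell markers in the ratios of the 9 miRNAs was not tested.

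The arrays also differed as a whole. Median background was 104 units on sham, then 206, 152, 144 and 101. Spike-in probes were read relative to the median of the miRNAs above the floor on all arrays. On that scale they were lower than on sham, with log2 ratios of -2.31, -1.96, -0.58 and -0.41. The median log2 difference between the first and the last 18 blocks of the slide was 0.15 on sham, then 0.15, 1.0, 0.66 and 0.34. No spot of the 9 miRNAs was at the ceiling of the scanner. The part of background, spike-in level and slide side in the day 5 and day 10 ratios was not tested.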

How the data were processed

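RNA of rat hearts was measured on 5 arrays of 1 colour, 1 per group. The deposited raw table lists 12312 spots, each with a foreground intensity and a background-subtracted intensity, per the file headers, and neither is normalized. The authors' deposited processed table holds a ratio per probe, on a linear scale; its values are multiples of the spot medians by 1 constant per array, and centring is absent. No source used here names the scanner. For sham, the raw column's header names day 15 while the label gives day 5; it was matched to sham because it alone scales exactly to the processed sham values, and the day was not settled.

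Background was taken as foreground minus the subtracted value. Foregrounds were corrected by normexp (offset 50), quantile scaled over the spots of the 678 rat probes, and averaged over 4 spots as log2 (limma 3.58.1, R 4.3.3). Ratios were called at 2-fold. Offset and quantile scaling shrink ratios of dim probes. For a miRNA that passed the floor on sham or TAC alone, a bound was computed against the lowest signal above the floor on the dim array. Where the scaled level of the miRNA itself was higher there, that level was used instead. The steps were tested on a simulated copy of the sham array in which 40 bright probes were changed by known folds. A true log2 ratio of 1 came out at a median of 0.90, and one of -1 at -1.03. No dim probe was changed, so the test does not cover members near the floor.

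The members and lists were chosen with earlier results of these data known. Named genes were all members, region-list miRNAs above the floor, the other-imprinted list, the 2 nearest miRNAs of each member measured throughout, and markers that touch a result; miR-381, miR-3563-5p, miR-1188-3p, miR-382 and miR-487b were added after values were seen. The 9 alternatives were median, spike-in and wider quantile scaling, plain subtraction, no floor, a floor of 6 deviations, blocks 1 to 18 or 19 to 36 of the slide, and the authors' values. Mature sequences and gene order came from RefSeq (GRCr8). The number of arrays limits the precision.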

Additional observations from a re-analysis of the deposited data

How the results depend on the processing

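For the count of members at 2-fold or more, the day 5 value of 4 became 1 with wider quantile scaling (every probe but the controls), 2 with plain background subtraction and 2 in blocks 19 to 36. It was 3 with median scaling, the stricter floor, blocks 1 to 18 and the authors' values. With spike-in scaling and without a floor it was 5, so none of the 9 alternatives gave 4. The day 10 value of 1 became 7 with spike-in scaling, 2 without a floor, 0 with the stricter floor and 3 in blocks 1 to 18. The day 15 value of 0 became 4 with spike-in scaling and 1 each with median scaling, plain subtraction, blocks 1 to 18, blocks 19 to 36 and the authors' values. The day 20 value of 0 became 3 with spike-in scaling and 1 each with median scaling, plain subtraction, blocks 1 to 18 and the authors' values. For the median log2 ratio, day 5 (1.06) became 0.39 with wider quantile scaling, 3.38 with spike-in scaling, 1.35 in blocks 1 to 18 and 1.33 with the authors' values. Day 10 (0.52) became 2.22 with spike-in scaling, 0.92 in blocks 1 to 18 and 0.64 with the authors' values. It fell to 0.15 with wider quantile scaling, 0.16 in blocks 19 to 36, 0.17 with plain subtraction and 0.26 with median scaling. With spike-in scaling day 15 (0.50) became 1.08 and day 20 (0.26) became 0.69. With wider quantile scaling they became 0.32 and 0.074. Scaling moves all miRNAs together, and relative to the median of all measured miRNAs the members' median lay 0.30 to 0.99 higher on day 5, 0 to 0.85 on day 10, 0.46 to 0.76 on day 15 and 0.23 to 0.45 on day 20 over all settings run. In the setting without a floor, the median of all was that of 678 probes, most of them below the floor. MiR-300-5p on day 5 was past 2-fold in every setting (1.11 to 4.10). On day 5 miR-1193-3p dropped to 0.21, 0.77, 0.59, 0.91 and 0.94 with wider quantile scaling, median scaling, plain subtraction, the authors' values and blocks 19 to 36. MiR-667 dropped to 0.39, 0.99 and 0.89 with wider quantile scaling, plain subtraction and blocks 19 to 36, and miR-323 to 0.80 with wider quantile scaling. Of 218 recomputed single ratios, 154 moved by less than the spot spread and 64 by more. From past 2-fold to within it 9 fell, and 25 went past it. None that was past 2-fold with the scaling used here changed sign. Some within 2-fold did, on day 10 miR-136 (up to 1.86), miR-1193-3p (down to -0.41) and miR-665 (-0.06). On day 15 miR-300-5p did (-0.10). On day 20 miR-127 (0.07), miR-667 (-0.08) and miR-665 (0.31) did. Apart from the scaling itself, the cause of these shifts was not tested. Signals near the floor limit miR-127, miR-665, miR-300-3p and the sham value of miR-323. No paired analysis was possible because there was 1 array per group.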
